A study of Mus musculus with 7 samples.

Results

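T cells and natural killer (NK) cells in mammary glands on lactation day 1 were described through 40 genes. The genes were listed by name, with earlier results of these data known. The list was taken from the 37310 genes counted in 7 RNA-seq libraries, 3 from WT mice and 4 from mice that the labels call *Tardbp* KO. All 40 genes were found in the count table, and all 40 were among the 17175 genes with enough counts to be tested. By role, 10 code for the T cell receptor complex and other T cell surface proteins, 5 for signalling proteins, 9 mark naive or recirculating T cells, 5 regulatory or activated T cells, 6 cytotoxic cells and 3 NK cells, and 2 are shared by most lymphocytes.

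The WT mice had 2 intact *Tardbp* alleles and carried WAP-Cre, which places Cre recombinase under the control of the promoter of *Wap*, a milk protein gene. The mice labelled KO carried the same WAP-Cre and 2 *Tardbp* alleles with loxP sites around exons 2 to 3. *Tardbp* codes for the RNA-binding protein TDP-43. All were C57BL/6 females, and their age is not given in the sources used here. Cre is active in luminal epithelial cells, so the lymphocytes of the gland were not its target, and the RNA came from whole tissue.

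A T cell recognizes its antigen through the T cell receptor, whose signal passes through the CD3 chains and the kinases LCK and ZAP70. CD4 and CD8 mark helper and cytotoxic lineages. Naive T cells use CCR7 and S1PR1 to circulate between blood and lymph nodes, regulatory T cells depend on the transcription factor FOXP3, and cytotoxic T cells and NK cells kill with perforin and granzymes. In the mouse, lymphocytes lie within the ducts and stroma of the gland, and lymph nodes lie in its fat pad. The sources used here do not say whether lymph nodes were removed.

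Levels are given as TMM-scaled CPM, the counts of a gene divided by the scaled total of its library, and library totals ranged from 36007737 to 42811337 counts. *Tardbp* itself had 223, 178 and 159 CPM in the WT libraries and 214, 176, 154 and 208 CPM in the libraries labelled KO. The groups overlapped, with a log2 fold change of 0.01 (SE 0.18, adjusted p = 0.982, edgeR quasi-likelihood test). This count covers the whole gene and all cells of the gland, so it does not show the deletion, and the groups are named by their labels throughout. Luminal epithelial markers summed to 2180 to 3000 CPM in WT libraries and 2260 to 3420 CPM in libraries labelled KO. Of these 5 markers, 4 had a higher mean in libraries labelled KO and 1, *Elf5*, a lower one (log2 fold change −0.59). Milk protein genes took 26.3% to 34.0% of all counts in WT libraries and 12.7% to 21.8% in libraries labelled KO.

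Promoter stretches are shown for 7 members whose levels are compared below, 4 with a log2 fold change above 2 and 3 cytotoxic or NK genes with one below 1. Each is the 150 bases before the start site, written 5′ to 3′ on the gene's strand, from RefSeq on GRCm38.p6. Capitals mark every match, on either strand, to 5 short motifs named after the factors known to bind them: TGTGGT (RUNX), CTTTGA (TCF and LEF), AGGAAG (ETS), TCACAC (T-box) and TATAAA (the TATA box).
Cd3e, a CD3 chain (chr9:45009612-45009761, minus strand): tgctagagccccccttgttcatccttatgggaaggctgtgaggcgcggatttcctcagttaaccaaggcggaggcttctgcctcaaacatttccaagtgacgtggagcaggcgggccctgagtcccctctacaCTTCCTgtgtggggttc
Lck, the coreceptor kinase (chr4:129573642-129573791, minus strand): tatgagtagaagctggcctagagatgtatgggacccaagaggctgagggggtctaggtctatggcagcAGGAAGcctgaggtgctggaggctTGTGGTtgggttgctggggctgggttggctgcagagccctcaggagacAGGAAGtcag
Il7r, the interleukin 7 receptor (chr15:9529877-9530026, minus strand): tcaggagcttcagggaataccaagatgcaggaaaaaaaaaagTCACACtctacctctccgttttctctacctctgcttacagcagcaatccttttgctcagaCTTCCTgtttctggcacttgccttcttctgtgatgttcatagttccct
Foxp3, the regulatory T cell factor (chrX:7579526-7579675, plus strand): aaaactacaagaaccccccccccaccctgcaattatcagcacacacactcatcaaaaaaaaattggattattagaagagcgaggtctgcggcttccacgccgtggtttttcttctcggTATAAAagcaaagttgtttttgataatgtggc
Gzma, granzyme A (chr13:113100982-113101131, minus strand): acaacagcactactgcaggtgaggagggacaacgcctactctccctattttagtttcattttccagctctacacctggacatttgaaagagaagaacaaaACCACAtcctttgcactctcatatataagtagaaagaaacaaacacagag
Gzmb, granzyme B (chr14:56262335-56262484, minus strand): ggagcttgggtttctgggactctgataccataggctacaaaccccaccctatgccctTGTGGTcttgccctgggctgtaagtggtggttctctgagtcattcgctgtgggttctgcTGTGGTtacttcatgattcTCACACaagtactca
Ncr1, the NK receptor NKp46 (chr7:4337565-4337714, plus strand): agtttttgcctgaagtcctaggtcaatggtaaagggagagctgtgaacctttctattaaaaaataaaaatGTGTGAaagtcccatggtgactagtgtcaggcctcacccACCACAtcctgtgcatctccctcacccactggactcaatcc

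A promoter was listed for 29 of the 40 members, and the motifs were counted in the 250 bases before the start, taking the outermost start of each gene. ETS letters were found in 16 of the 29 (55.2%) and in 29.2% of 27025 mouse promoters. RUNX letters were found in 7 of 29 (24.1%, against 14.2% of all promoters), and 6 of these 7 were cytotoxic or NK genes: *Gzma*, *Gzmb*, *Prf1*, *Nkg7*, *Ncr1* and *Klrb1c*. Of the other members with a promoter, 1 of 21 held them, *Lck*. T-box letters were found in 20.7% of member promoters and 12.2% of all, TCF and LEF letters in 13.8% and 14.1%, and TATA letters in 6.9% and 13%. A match describes the letters in this window and is not a binding site, and the grouping of the RUNX matches was noticed after they had been counted.

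Between genotypes, no member passed the limits of the edgeR quasi-likelihood test (an adjusted p below 0.01 with a log2 fold change of more than 1 either way), nor did any of the 17175 genes tested (0.0%). Yet 39 of the 40 members had a higher mean in libraries labelled KO, and the median of their log2 fold changes was 2.27, compared with 0.05 over all genes tested. Without adjustment, 30 of 40 had p under 0.05 with a higher level in libraries labelled KO, as did 10.7% of all genes tested, and no member had p under 0.05 with a lower level. A log2 fold change above 1 was found in 33 members and in 7.35% of all genes. Since the members were chosen with earlier results of these data known, these shares describe the list and do not test it. The lowest adjusted p of any member was 0.0797 (*Cd4*).

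The tool decided which members were called. The edgeR exact test called 6 members with the same limits, *Cd4*, *Tcf7*, *Lef1*, *Il7r*, *Ccr7* and *Foxp3*, and 1.04% of all genes as higher. DESeq2 called these 6 and 9 more (1.69% of all genes), namely *Cd3e*, *Cd247*, *Cd2*, *Lck*, *Skap1*, *Bcl11b*, *Icos*, *Ptprc* and *Acap1*. Neither tool called any of the 9 cytotoxic and NK genes. *Eomes* came nearest, with an adjusted p of 0.0384 in the exact test and 0.0141 in DESeq2. Given the small shares over all genes, the lack of a call among 9 genes does not set them apart.

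**Figure D1:**
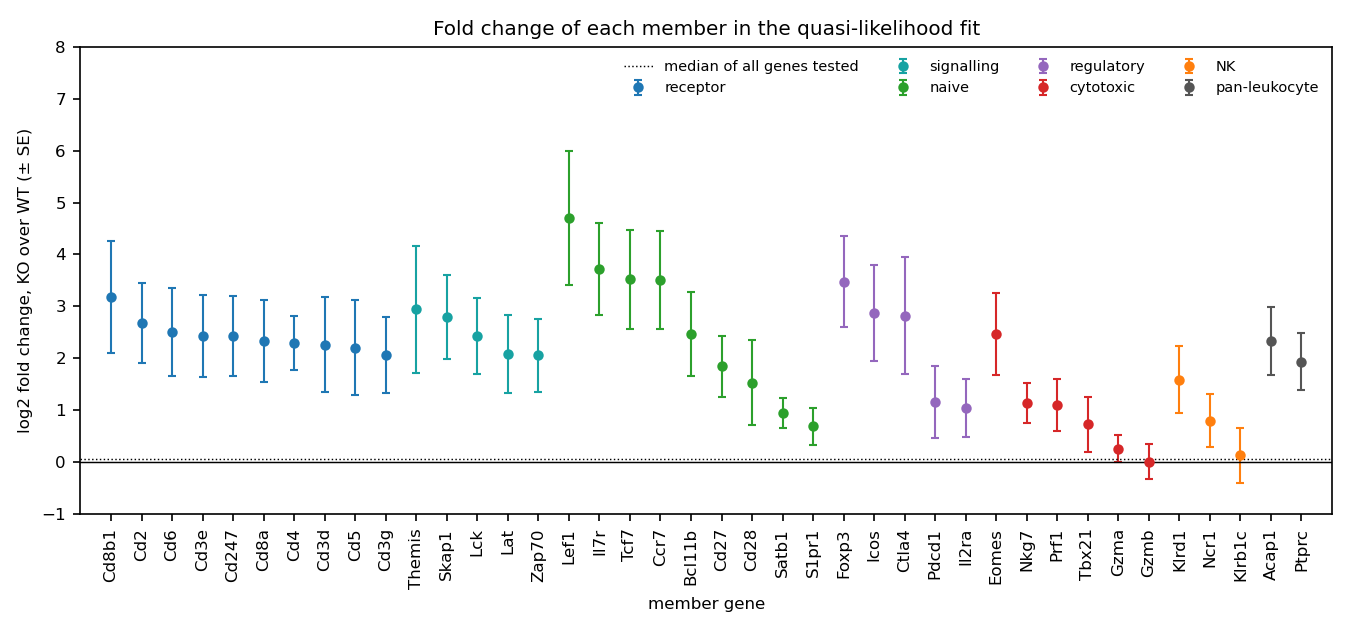
The log2 fold change of each of the 40 members (libraries labelled KO over WT) is plotted with its standard error from the edgeR quasi-likelihood fit, coloured by role, and the dotted line is the median of all genes tested, 0.05. Values run from 4.70 for *Lef1* to 0 for *Gzmb*, and the lowest values belong to the granzymes and to *Klrb1c*.

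Much of the difference came from 2 libraries. In KO replicates 1 and 3 the members stood at a median of 2.85 and 3.18 above the WT mean on the log2 scale, while the medians of KO replicates 4 and 2 were 0.80 and 0.39. Against the WT libraries, 37 of 40 members lay above all 3 of them in each of KO replicates 1 and 3, compared with 26 for KO replicate 4 and 17 for KO replicate 2. KO replicates 1 and 3 were the 2 highest libraries for 34 members.

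The 2 groups did not overlap for 12 of 40 members, all higher in libraries labelled KO (9.07% of all genes tested). With 6 libraries, where overlap is less likely for every gene, this count was 24 without WT replicate 1 (23.0% of all genes in either direction) and 26 without KO replicate 2 (23.1%). When KO replicates 1 and 3 were both left out, an alternative added after seeing the data, the median log2 fold change of the members was 0.57 and 6 members had an unadjusted p under 0.05, namely *Ptprc*, *Cd4*, *Tcf7*, *Ccr7*, *Il7r* and *Foxp3*. In that fit 5.46% of all genes had such a p with a higher level in libraries labelled KO, and the adjusted p of the 6 members ran from 0.314 to 0.38. Lanes differed between libraries, and within lane 4, which held WT replicate 2 and KO replicates 3 and 4, the median was 1.99, with no test. The cause of the difference between the libraries labelled KO was not tested. In bulk tissue, more T cells and more of these RNAs in each cell cannot be told apart.

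**Figure D2:**
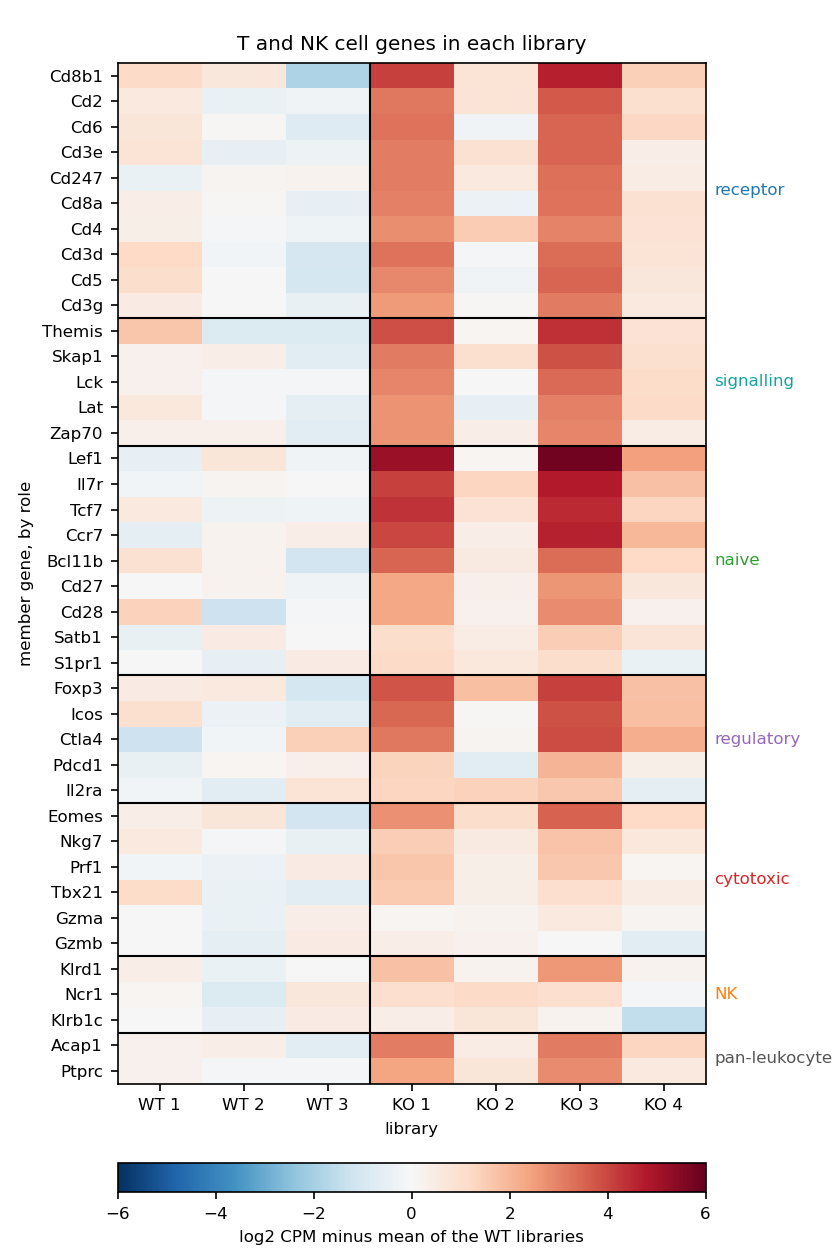
Each row is one of the 40 members and each column a library, and colour gives log2 CPM minus the mean of the WT libraries. KO replicates 1 and 3 are red in most rows, less so for *Satb1*, *S1pr1*, *Il2ra* and most cytotoxic and NK genes, and palest for *Gzma*, *Gzmb* and *Klrb1c*. KO replicates 2 and 4 are pale in most rows.

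The T cell receptor complex came first by role. *Cd3e* (chromosome 9, 44806826 to 44817673, build NCBIM37), a signalling chain of the receptor, had 2.52, 1.01 and 1.13 CPM in the WT libraries and 12.4, 2.72, 16.3 and 1.92 CPM in KO replicates 1 to 4. Only KO replicate 4 lay within the WT range, and KO replicate 2 was just above it. The log2 fold change was 2.43 (SE 0.793, adjusted p = 0.137, edgeR quasi-likelihood test). Its neighbours on chromosome 9 gave the same picture. *Cd3d* had 3.16, 1.19 and 0.654 CPM in WT and 13.7, 1.29, 14.2 and 2.45 CPM in KO replicates 1 to 4 (log2 fold change 2.26, SE 0.911, adjusted p = 0.199). *Cd3g* had 3.05, 2.09 and 1.55 CPM in WT and 12.7, 2.25, 18.8 and 3.28 CPM in KO replicates 1 to 4 (log2 fold change 2.06, SE 0.726, adjusted p = 0.156). For both, the 2 groups overlapped.

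*Cd247*, the zeta chain of the complex, separated the groups, though narrowly. It had 0.790, 1.19 and 1.22 CPM in WT libraries and 9.10, 1.61, 10.8 and 1.44 CPM in KO replicates 1 to 4 (log2 fold change 2.42, SE 0.769, adjusted p = 0.132). Of its exon bases, 59.8% overlap *Pou2f1* and *Gm16565*, and a read lying on several genes was dropped from the counts, so its level is an underestimate. The surface proteins *Cd2*, *Cd5* and *Cd6* had log2 fold changes of 2.68, 2.20 and 2.5 with adjusted p of 0.111, 0.211 and 0.147 in the same edgeR test.

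The coreceptors differed in where KO replicate 2 lay. *Cd4* (chromosome 6) had 3.76, 2.80 and 2.5 CPM in WT and 21.2, 8.67, 23.5 and 5.55 CPM in KO replicates 1 to 4, so that every library labelled KO lay above every WT library. Its log2 fold change was 2.29 (SE 0.513, adjusted p = 0.0797), with the smallest standard error of the receptor genes. *Cd8a*, the alpha chain of CD8, had 4.44, 3.63 and 2.44 CPM in WT and 27.8, 2.67, 32.6 and 6.48 CPM in KO replicates 1 to 4 (log2 fold change 2.32, SE 0.792, adjusted p = 0.147). Here KO replicate 2 lay inside the WT range. *Cd8b1*, the beta chain, had 1.81, 1.28 and 0.178 CPM in WT and 14, 1.43, 21.3 and 2.21 CPM in KO replicates 1 to 4 (log2 fold change 3.17, SE 1.08, adjusted p = 0.146). The beta chain thus overlapped in KO replicate 2 too.

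The ratio of *Cd4* to *Cd8a*, a rough measure of the balance of the helper and cytotoxic lineages, was 0.847, 0.770 and 1.02 in WT libraries. In KO replicates 1, 3 and 4 it was 0.762, 0.721 and 0.856, within or just below the WT range. KO replicate 2 stood apart at 3.25. *Cd4* is also transcribed in some macrophages and dendritic cells, and the 8 macrophage markers summed to 415, 608, 418 and 256 CPM in KO replicates 1 to 4 and 278 to 397 CPM in WT. Their part in the ratio was not tested.

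Signalling genes were high in the same libraries as the receptor genes. *Lck*, the kinase that starts the receptor's signal, had 4.93, 3.87 and 3.78 CPM in WT and 32.6, 4.19, 44.0 and 8.91 CPM in KO replicates 1 to 4 (log2 fold change 2.42, SE 0.735, adjusted p = 0.123). Only KO replicate 2 lay within the WT range. *Zap70*, the kinase recruited to the phosphorylated chains, had 1.99, 2 and 1.01 CPM in WT and 10.7, 2.09, 12.4 and 2.21 CPM in KO replicates 1 to 4. Its log2 fold change was 2.05 (SE 0.704, adjusted p = 0.149), and the groups were separated by a margin narrower than the spread within WT. The adaptors *Lat* and *Skap1* and the thymocyte selection protein *Themis* had log2 fold changes of 2.08, 2.79 and 2.94, with adjusted p of 0.162, 0.111 and 0.207. All 5 signalling genes had an unadjusted p under 0.05, as did 10.7% of all genes, higher in libraries labelled KO. None of the 5 passed after adjustment.

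**Figure D3:**
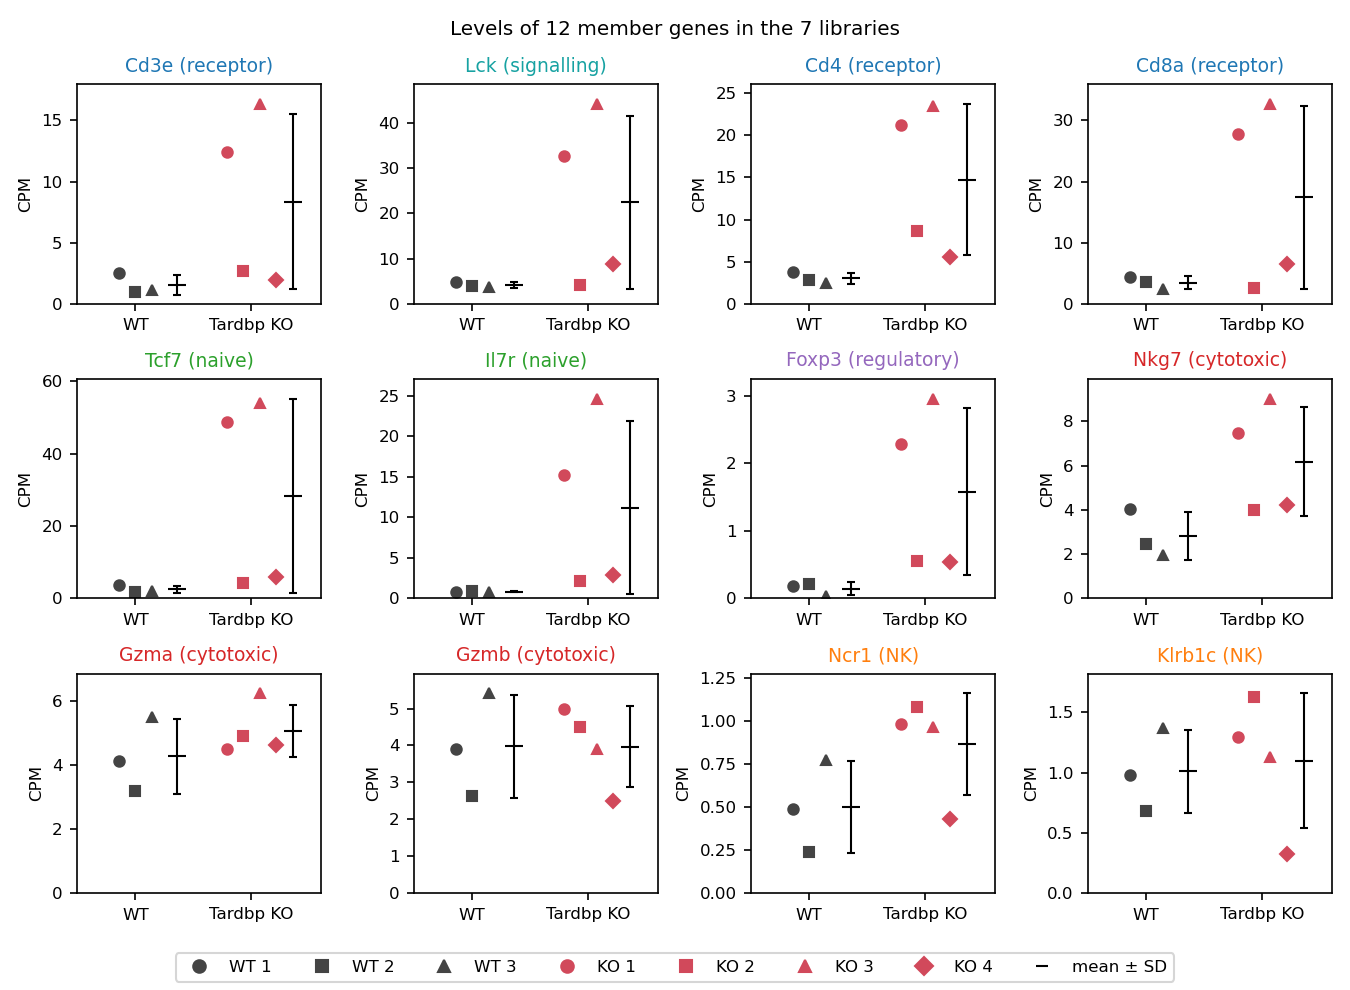
CPM of 12 members is plotted for each library (grey, WT; red, libraries labelled KO; the marker shape gives the replicate), with the mean and SD of each group beside the points. In the first 7 panels KO replicates 1 and 3 stand far above all other libraries, whereas the 4 granzyme and NK receptor panels show overlapping groups.

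Genes of naive T cells held the 4 largest fold changes of the list. *Lef1*, a transcription factor of naive T cells that is also used outside the immune system, had 0.188, 0.506 and 0.238 CPM in WT and 12.1, 0.322, 18.9 and 1.79 CPM in KO replicates 1 to 4. The log2 fold change was 4.70 (SE 1.30, adjusted p = 0.103), and KO replicate 2 lay within WT. *Il7r*, the survival receptor of resting T cells, had 0.752, 0.953 and 0.832 CPM in WT and 15.2, 2.12, 24.6 and 2.93 CPM in KO replicates 1 to 4. All 4 libraries labelled KO lay above every WT library. Its log2 fold change was 3.72 (SE 0.893, adjusted p = 0.0851).

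*Tcf7*, the partner of *Lef1* in naive and memory T cells, had 3.57, 1.91 and 1.96 CPM in WT and 48.7, 4.39, 54.1 and 5.84 CPM in KO replicates 1 to 4 (log2 fold change 3.52, SE 0.951, adjusted p = 0.0972). The groups did not overlap. *Ccr7*, the receptor that guides cells into lymph nodes, had 0.752, 1.34 and 1.55 CPM in WT and 19.7, 1.54, 29.5 and 4.75 CPM in KO replicates 1 to 4 (log2 fold change 3.50, SE 0.942, adjusted p = 0.0968). It overlapped only through KO replicate 2, which lay just under the highest WT library.

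The other naive genes had smaller differences. *Satb1*, a chromatin organizer also found outside T cells, had 12.9, 24.4 and 17.3 CPM in WT and 36.4, 23.7, 49.4 and 30.2 CPM in KO replicates 1 to 4 (log2 fold change 0.94, SE 0.291, adjusted p = 0.126). *S1pr1*, which T cells use to leave lymph nodes and which endothelium also expresses, had 26.0, 18.5 and 36.6 CPM in WT and 58.2, 40.8, 54.4 and 20 CPM in KO replicates 1 to 4 (log2 fold change 0.68, SE 0.365, adjusted p = 0.323). Both overlapped between the groups. Per kb of exon *S1pr1* was the highest of the 40 members in WT, at 8.92 ± 3.01 CPM per kb (SD, n = 3), and the summed endothelial markers overlapped too, at 230 to 358 CPM in WT and 178 to 365 CPM in libraries labelled KO. *Bcl11b*, *Cd27* and *Cd28* had log2 fold changes of 2.46, 1.84 and 1.52 with adjusted p of 0.142, 0.132 and 0.327. Over the 9 naive genes the median was 2.46, and 7 had an unadjusted p under 0.05 (10.7% of all genes, higher in libraries labelled KO).

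Regulatory and activation genes were read from few counts. *Foxp3* (chromosome X, 7156802 to 7172369, NCBIM37) had 5, 7 and 1 counts in WT and 86, 24, 144 and 20 counts in KO replicates 1 to 4, or 0.188, 0.209 and 0.0297 CPM and 2.28, 0.552, 2.95 and 0.533 CPM. Every library labelled KO lay above every WT library. The log2 fold change was 3.47 (SE 0.878, adjusted p = 0.0899). Of the 40 members *Foxp3* alone reached the smallest p that the exact permutation test allows (2-sided, on log2 CPM, 35 ways of dividing the libraries), 0.0286, as did 5.26% of all genes tested in the same direction. On CPM its exact permutation p was 0.143, and 0 members were under 0.05. Of its exon bases, 21.7% overlap neighbouring genes and were not counted.

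Beside *Foxp3*, the checkpoint receptor gene *Ctla4* had 0, 0.0596 and 0.297 CPM in WT and 1.09, 0.092, 1.86 and 0.533 CPM in KO replicates 1 to 4 (log2 fold change 2.82, SE 1.12, adjusted p = 0.195). *Icos*, a costimulator of activated T cells, had 0.827, 0.298 and 0.238 CPM in WT and 4.78, 0.414, 6.39 and 1.49 CPM in KO replicates 1 to 4 (log2 fold change 2.87, SE 0.921, adjusted p = 0.135). Both overlapped through KO replicate 2. *Il2ra*, the high-affinity interleukin 2 receptor chain, had 1.39, 0.953 and 2.76 CPM in WT and 3.9, 4.12, 4.87 and 1.01 CPM in KO replicates 1 to 4 (log2 fold change 1.03, SE 0.557, adjusted p = 0.329). *Pdcd1*, the PD-1 receptor, had 0.226, 0.357 and 0.416 CPM in WT and 0.902, 0.184, 1.47 and 0.427 CPM in KO replicates 1 to 4 (log2 fold change 1.15, SE 0.687, adjusted p = 0.374). *Il2ra* differed from most members in that KO replicate 2 was among its high libraries and KO replicate 4 among its low ones.

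Measured against *Cd3e* within a library, *Foxp3* stood at 0.0746, 0.206 and 0.0263 in WT and 0.184, 0.203, 0.181 and 0.278 in KO replicates 1 to 4. The libraries labelled KO thus kept to a narrow band, whether they held much *Cd3e* or little, and the value of WT replicate 2, which rests on 7 counts of *Foxp3*, lay within it.

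Among the cytotoxic genes, the granzymes differed little between the groups. *Gzma*, granzyme A, had 4.10, 3.19 and 5.50 CPM in WT and 4.49, 4.88, 6.22 and 4.61 CPM in KO replicates 1 to 4. The log2 fold change was 0.25 (SE 0.26, adjusted p = 0.635). *Gzmb*, granzyme B, had 3.91, 2.62 and 5.41 CPM in WT and 4.99, 4.51, 3.89 and 2.48 CPM in KO replicates 1 to 4, at means of 3.98 ± 1.4 CPM (SD, n = 3) and 3.97 ± 1.09 CPM (SD, n = 4). Its adjusted p was 0.997, and KO replicate 3, the library with the most *Cd3e*, lay inside the WT range. In WT both granzymes were among the highest members per kb, at 4.54 ± 1.24 CPM per kb for *Gzma* and 2.81 ± 0.984 for *Gzmb*, against 1.08 ± 0.584 for *Cd3e* (SD, n = 3).

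Other genes of killing had KO replicates 1 and 3 among their higher libraries. *Nkg7*, a granule membrane protein, had 4.06, 2.44 and 1.96 CPM in WT and 7.48, 4, 9.01 and 4.21 CPM in KO replicates 1 to 4 (log2 fold change 1.13, SE 0.391, adjusted p = 0.15). *Prf1*, perforin, had 0.865, 0.775 and 1.43 CPM in WT and 3.21, 1.27, 3.19 and 1.07 CPM in KO replicates 1 to 4 (log2 fold change 1.09, SE 0.498, adjusted p = 0.248). In both, KO replicates 1 and 3 were above all WT libraries and the groups overlapped. *Eomes*, a T-box factor of effector cells, had 0.451, 0.566 and 0.119 CPM in WT and 2.49, 0.736, 4.30 and 0.800 CPM in KO replicates 1 to 4 (log2 fold change 2.46, SE 0.785, adjusted p = 0.133), without overlap. *Tbx21*, another such factor, had 2.41, 0.804 and 0.654 CPM in WT and 3.29, 1.4, 2.23 and 1.49 CPM in KO replicates 1 to 4 (log2 fold change 0.72, SE 0.528, adjusted p = 0.478), with overlap, and its log2 fold change was 1.52 without WT replicate 1.

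Of the NK receptors, *Ncr1* and *Klrb1c* were at 1.63 CPM or less in every library, and *Klrd1* reached 5.92 CPM in KO replicate 3. *Ncr1*, the receptor NKp46 that marks NK cells and related innate cells, had 0.489, 0.238 and 0.773 CPM in WT and 0.982, 1.08, 0.962 and 0.427 CPM in KO replicates 1 to 4 (log2 fold change 0.79, SE 0.51, adjusted p = 0.416). Its highest library was KO replicate 2, not 1 or 3. *Klrb1c*, which codes for NK1.1 and shares 4.93% of its 50-base stretches with related *Klrb1* genes, had 0.978, 0.685 and 1.37 CPM in WT and 1.30, 1.63, 1.13 and 0.320 CPM in KO replicates 1 to 4 (log2 fold change 0.12, SE 0.529, adjusted p = 0.925). The sign of that fold change depended on the libraries used. *Klrd1*, the CD94 chain found on NK cells and on some CD8 T cells, had 1.24, 0.685 and 0.921 CPM in WT and 3.26, 1.06, 5.92 and 1.09 CPM in KO replicates 1 to 4 (log2 fold change 1.58, SE 0.648, adjusted p = 0.204). Of the 3, *Klrd1* alone had KO replicates 1 and 3 as its highest libraries.

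**Figure D4:**
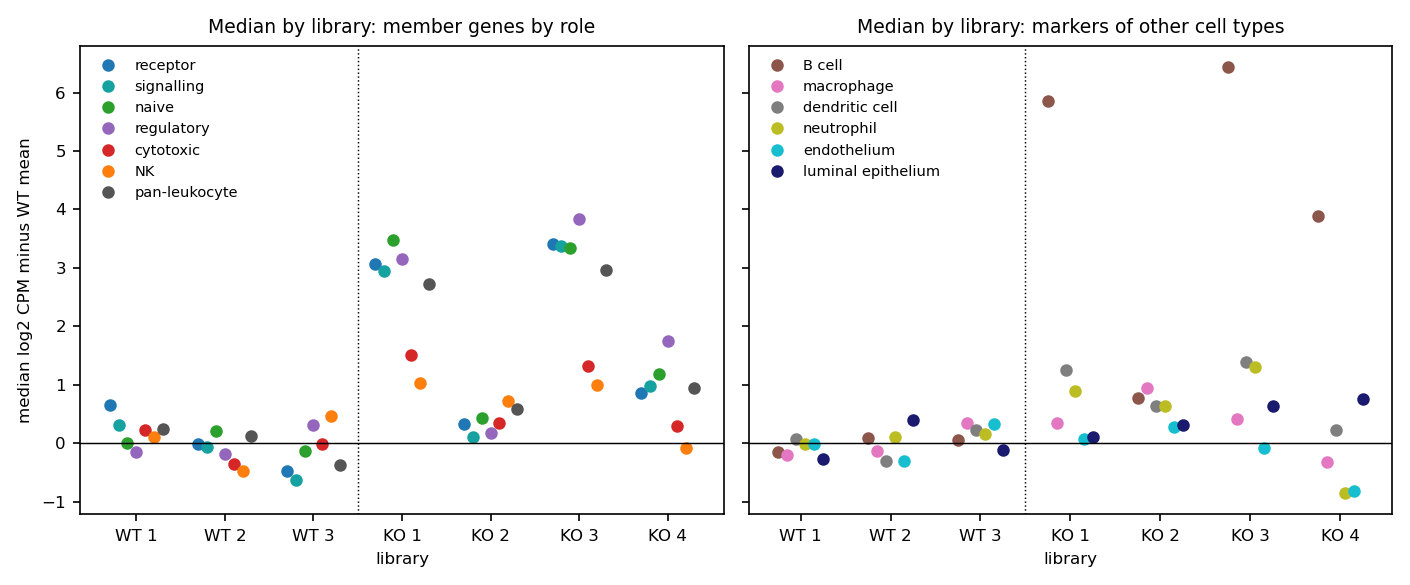
For each library, the median of log2 CPM minus the WT mean is plotted for the 7 role groups of the members (left) and for 6 lists of markers of other cell types (right). In KO replicates 1 and 3 the receptor, signalling, naive and regulatory groups reach 2.95 to 3.84 and the cytotoxic and NK groups 1.00 to 1.5, and B cell markers exceed them all.

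Contrasted by role, the median log2 fold change was 2.37 for receptor, 2.42 for signalling, 2.46 for naive and 2.82 for regulatory genes, and 0.91 for cytotoxic and 0.79 for NK genes. An unadjusted p under 0.05 was found in 10 of 10 receptor, 5 of 5 signalling, 7 of 9 naive and 3 of 5 regulatory genes, and in 2 of 6 cytotoxic and 1 of 3 NK genes, against 10.7% of all genes. In KO replicate 3 the naive genes stood at a median of 3.34 above the WT mean on the log2 scale, the regulatory genes at 3.84, the cytotoxic genes at 1.32 and the NK genes at 1.00. In KO replicate 2 the order was not kept, with 0.43, 0.18, 0.35 and 0.72. These medians describe small groups of genes, and the difference between the groups was not tested. Of the 5 regulatory genes, only *Il2ra* had at least 10 counts in every library, with a log2 fold change of 1.05 in the fit of such genes. Without KO replicates 1 and 3 the medians were 0.70, 1.08, 0.19 and 0.19.

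Ratios within a library restated the same contrast from the same values, without the scaling between libraries. Their divisor, *Cd3e*, was itself high in KO replicates 1 and 3, so they are not further support. *Gzma* over *Cd3e* was 1.63, 3.15 and 4.87 in WT, 0.361 and 0.381 in KO replicates 1 and 3, and 1.80 and 2.4 in KO replicates 2 and 4. *Gzmb* over *Cd3e* was 1.55, 2.59 and 4.79 in WT and 0.402, 1.66, 0.238 and 1.29 in KO replicates 1 to 4. *Ncr1* over *Cd3e* was 0.194, 0.235 and 0.684 in WT and 0.0791, 0.398, 0.059 and 0.222 in KO replicates 1 to 4. In KO replicates 1 and 3 all 3 ratios were below every WT library, and in KO replicate 2 all 3 lay within the WT range. *Ccr7* over *Cd3e* ran the other way, at 0.299, 1.32 and 1.37 in WT and 1.59, 0.568, 1.81 and 2.47 in KO replicates 1 to 4, above every WT library in all but KO replicate 2.

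**Figure D5:**
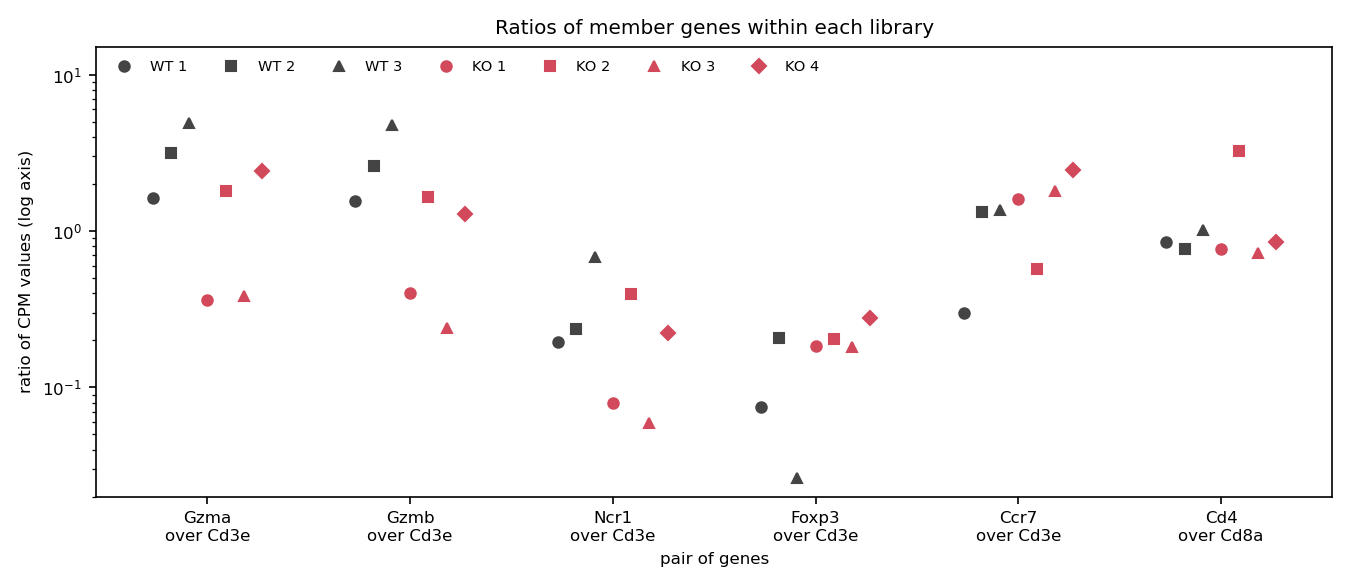
Ratios of CPM within a library are plotted on a log axis for 6 pairs of genes (grey, WT; red, libraries labelled KO; the marker shape gives the replicate). KO replicates 1 and 3 are lowest for the granzymes and *Ncr1* over *Cd3e*, KO replicate 4 is highest for *Ccr7* over *Cd3e*, and KO replicate 2 alone is high for *Cd4* over *Cd8a*.

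Genes shared by most lymphocytes or leukocytes separated the groups, by a narrow margin for *Acap1*. *Ptprc*, the leukocyte antigen CD45, had 23.4, 17.8 and 18.2 CPM in WT and 102, 32.3, 139 and 29.4 CPM in KO replicates 1 to 4 (log2 fold change 1.93, SE 0.545, adjusted p = 0.106). *Acap1*, an endosome recycling protein common in lymphocytes, had 5.57, 6.11 and 2.97 CPM in WT and 39.3, 6.44, 40.9 and 11.6 CPM in KO replicates 1 to 4 (log2 fold change 2.33, SE 0.652, adjusted p = 0.105). *Acap1* is also on a list the study chose from these samples, so its direction is not independent of that choice.

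Other genes of the T and NK cell pathway gave a weaker form of the pattern. Of 58 such genes, all tested, 50 had a higher mean in libraries labelled KO. An unadjusted p under 0.05 was found for 29 in that direction (10.7% of all genes tested) and 0 in the other, and none was called. Their median log2 fold change was 1.27. Those with the highest mean level include genes that other cells of the gland also use. *Gata3*, *Klf2*, *Gimap4* and *Gimap6* had log2 fold changes of −0.27, 1.11, 0.87 and 0.58, with adjusted p between 0.143 and 0.679. *Gata3*, which luminal cells also need, was at 68.7 to 214 CPM over all libraries. The effector cytokine gene *Ifng*, chosen after its values were seen, was at 0.119 to 0.238 CPM in WT and 0.0531 to 0.225 CPM in libraries labelled KO. Other effector and NK genes of this list, chosen in the same way, ran in both directions. *Klrk1* and *Ccl5* had log2 fold changes of 1.72 and 1.81, the former without overlap between the groups. *Fasl* and *Gzmk* had log2 fold changes of −0.59 and −0.67, with overlap.

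Segments of the T cell receptor genes, of which 14 of 102 had enough counts to be tested, had a median log2 fold change of 2.47. The constant segments *Trac*, *Trbc1* and *Trbc2*, chosen after their values were seen, had log2 fold changes of 2.87, 2.62 and 2.49 with adjusted p of 0.154, 0.143 and 0.134.

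Markers of other cells followed the members to different degrees. All 10 B cell markers had an unadjusted p under 0.05, as did 10.7% of all genes tested, higher in libraries labelled KO. Their median log2 fold change was 5.55. Their summed level was 4.10 to 4.65 CPM in WT and 229, 9.04, 320 and 69.5 CPM in KO replicates 1 to 4. The B cell markers were thus highest in the same 2 libraries as the T cell genes. In KO replicate 4 their median was 3.88 above the WT mean on the log2 scale, against 0.80 for the members. The B cell follicle chemokine *Cxcl13*, one of 6 lymph node stroma markers and chosen after its values were seen, had 0.226, 0 and 0.119 CPM in WT and 11.8, 0.138, 15.6 and 1.33 CPM in KO replicates 1 to 4. The lymph node stroma list as a whole was at 15.2 to 31.8 CPM in WT and 14 to 56.7 CPM in libraries labelled KO, with *Ccl21a* and *Ccl19* at 0.368 CPM or less in every library. The other tested genes of that list, *Madcam1*, *Lyve1* and *Prox1*, had log2 fold changes of 0.10, 0.21 and 0.12, and the median over the 4 tested was 0.16. The part of lymph node tissue in these values was not tested.

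Macrophage, endothelial and fibroblast markers overlapped between the groups, with median log2 fold changes of 0.37, −0.05 and −0.07, and none of their genes had an unadjusted p under 0.05. Dendritic cell markers had a median of 0.99, with 3 of 6 at an unadjusted p under 0.05 (10.7% of all genes, higher in libraries labelled KO). Proliferation genes had a median of −0.17, with summed levels of 47.0 to 108 CPM in WT and 27.6 to 94.3 CPM in libraries labelled KO.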

How the data were processed

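RNA of mammary glands at lactation day 1 was extracted with Trizol, made into Illumina TruSeq libraries and sequenced in lanes 1 to 5. The authors aligned reads with STAR to build NCBIM37 (mm9). The version is 2.5.2a in the submitters' processing notes and an earlier one in the methods. The deposited values are whole-number counts per gene from featureCounts, on exons of GENCODE vM1, without an option for strand, pairs or multimapping, so that mates were counted separately and reads over several genes or places were left out. The command line names 1 more library, which was not analysed here. Counting error is largest for members with the fewest counts, such as *Foxp3*, *Ctla4* and *Pdcd1*.

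The deposited counts of 37 mitochondrial and 580 ribosomal genes were set aside, and a gene entered the tests if 4 or more of the 7 libraries held 5 or more counts of it. Groups were taken from the titles. No member passed this filter through the KO libraries alone. The main test was edgeR 4.0.16 (R 4.3.3), with TMM factors and the quasi-likelihood test over all 17175 genes, with Benjamini-Hochberg adjustment. The study names edgeR but no test. A gene was called where its adjusted p was below 0.01 and its log2 fold change was more than 1 either way. CPM are TMM-scaled, and values per library on the log2 scale used a prior count of 2. Exact permutation tests were 2-sided. SDs describe the spread between libraries of single mice, which includes preparation and lane. The p-values are of the difference between the groups. DESeq2 1.42.0, edgeR's exact test, other scalings, filters and left-out libraries were alternatives, and the scripts were tested on simulated data. No 2 libraries of the same group were alike within counting error.

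The members and lists were chosen with earlier results of these data known. Values in every library were given for the members in a fixed list of 31, and for other pathway genes the 5 with the highest mean CPM were to be named, of which 1 is not reported here, nor are 2 of the planned ratios. Promoters are from RefSeq on GRCm38.p6, and gene positions from GENCODE vM1 on NCBIM37.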

Additional observations from a re-analysis of the deposited data

Results flagged for a closer look

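Of 49 groups of values tested for a library far from the others, 1 stood out, which is no more than the rate of about 1 in 20 that chance gives. It was the ratio of *Cd4* to *Cd8a* in the libraries labelled KO, in which the highest library, KO replicate 2 at 3.25, was separated from the next by 0.947 of the group's range, above Dixon's limit for 4 libraries. The other values were 0.762, 0.721 and 0.856. In KO replicate 2 *Cd4* had 8.67 CPM and *Cd8a* 2.67 CPM, and the cause of the ratio was not tested.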

How the results depend on the processing

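No member was called under any scaling, filter, threshold or left-out library with the quasi-likelihood test, whereas the edgeR exact test called 6 and DESeq2 15. The count of members without overlap, 12, was 20 with library size alone (28.3% of all genes) and 38 within lane 4 (1 WT and 2 KO libraries, 64.1% of all genes), and 12 to 26 when single libraries were left out. Scaling by library size alone moved the median of all genes from 0.05 to 0.42 on the log2 scale and that of the members from 2.27 to 2.72. With at least 10 counts in every library, *Il2ra* was the single regulatory gene left, so the value of that group, 1.05, is that of 1 gene. Without KO replicates 1 and 3, added after seeing the data, 6 members had an unadjusted p under 0.05 (5.46% of all genes with a higher level). The medians in that fit were 0.57 over all members, 0.54 for receptor, 0.48 for signalling, 0.70 for naive, 1.08 for regulatory, 0.19 for cytotoxic, 0.19 for NK and 0.77 for pan-leukocyte genes. The log2 fold change of *Klrb1c* reversed to −0.16 within lane 4, to −0.04 without KO replicates 1 and 3, and, with single libraries left out, ran from −0.14 (without KO replicate 2) to 0.40, with −0.10 without WT replicate 2, and the values of *Cd28* and *Pdcd1* reversed to −0.09 and −0.14 without KO replicates 1 and 3. The cause was not tested. *Gzmb*, at 0 in the main test, lay between −0.23 and 0.38 over all alternatives, the latter with library size alone, and the other 36 members kept their direction throughout. With the replicate block, the median of the members was 2.15, against 0.06 over all genes, and 0 were called. Whether the numbers pair the libraries could not be settled from so few correlations. Deviations of libraries numbered 1, 2 and 3 correlated at 0.351, 0.094 and −0.058. Those of libraries with unlike numbers correlated at −0.388 to 0.254. The block leaves KO replicate 4 unpaired. Members with few counts, such as *Foxp3* with 1 to 7 counts in WT, are the least precise.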
